A study of Rattus norvegicus with 6 samples.

Results

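The 5 genes Vegfa, Kdr, Flt1, Tek and Nos3, members of vascular endothelial growth factor (VEGF) signalling and of the vessel lining, were followed in rat kidney RNA. Their rows were taken by Ensembl gene ID, ENSRNOG00000019598 for Vegfa, ENSRNOG00000046829 for Kdr, ENSRNOG00000000940 for Flt1, ENSRNOG00000008587 for Tek and ENSRNOG00000009348 for Nos3. An ID was kept only if its chromosome in the table was that expected for the gene. All 5 were found, on chromosomes 9, 14, 12, 5 and 4 in that order, among 21986 genes in the table. The table gives no gene names, so the names rest on these IDs and on the chromosome, which was also that of the same symbol in RefSeq for all 5.

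The samples were 3 control and 3 FSGS kidney libraries from male wild-type Wistar rats. FSGS stands for focal segmental glomerulosclerosis, scarring of parts of some of the kidney's filters. The FSGS animals had the left kidney removed and were injected in the tail vein with adriamycin, an anthracycline toxic to glomerular cells, first at 5 mg/kg, on postoperative day 7, and again at 3 mg/kg, on postoperative day 28. The controls were injected with saline in an equal volume, and no operation is stated for them, so removal of a kidney and drug cannot be told apart. The titles call all samples untreated, against the treatment field, and the ages, the part of the kidney and whether each library is 1 animal are not given in the sources used here. P-values therefore measure the spread between these libraries, which may be technical.

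VEGF-A, the protein of Vegfa, is secreted in the kidney by podocytes and tubule cells and acts on neighbouring capillary endothelium. Endothelial cells receive it through the receptor tyrosine kinases encoded by Kdr (VEGFR-2), which carries most of the signal, and Flt1 (VEGFR-1), which binds VEGF-A tightly, signals weakly and also has a soluble form that traps the ligand. Tek encodes TIE2, the endothelial receptor for the angiopoietins, which keeps vessels quiescent, and Nos3 encodes endothelial nitric oxide synthase, an enzyme that VEGF signalling activates and whose product relaxes vessels.

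Stretches of genome before annotated start sites of the genes are shown because Vegfa, Kdr and Flt1 were all lower in FSGS while Nos3 was not. RefSeq's promoter table (build GRCr8) held 4 of the 5 genes, without Tek. The lines below give the 250 bases before the start that the table uses, 5′ to 3′ on the gene's strand, for chr9:22452604-22452853 (Vegfa, plus strand, the first of its 2 entries), chr14:32571813-32572062 (Kdr, plus strand), chr12:12333180-12333429 (Flt1, plus strand) and chr4:11706582-11706831 (Nos3, minus strand). The RefSeq spans of 3 of these genes begin further upstream, so that 32 bases of the Kdr window, 23 of the Nos3 window and all 250 of the Flt1 window lie within the gene itself, against 0 for Vegfa. Capitals mark the GC box GGGCGG, on either strand, a sequence that factors of the SP1 family can bind.
Vegfa: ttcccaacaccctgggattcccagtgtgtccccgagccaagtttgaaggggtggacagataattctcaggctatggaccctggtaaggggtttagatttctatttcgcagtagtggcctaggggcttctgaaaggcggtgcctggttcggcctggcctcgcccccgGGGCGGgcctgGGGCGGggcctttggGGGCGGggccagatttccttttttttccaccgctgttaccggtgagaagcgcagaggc
Kdr: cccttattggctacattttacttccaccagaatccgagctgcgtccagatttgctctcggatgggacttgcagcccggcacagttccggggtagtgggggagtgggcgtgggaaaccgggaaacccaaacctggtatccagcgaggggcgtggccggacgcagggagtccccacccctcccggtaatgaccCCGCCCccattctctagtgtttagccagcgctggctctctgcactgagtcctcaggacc
Flt1: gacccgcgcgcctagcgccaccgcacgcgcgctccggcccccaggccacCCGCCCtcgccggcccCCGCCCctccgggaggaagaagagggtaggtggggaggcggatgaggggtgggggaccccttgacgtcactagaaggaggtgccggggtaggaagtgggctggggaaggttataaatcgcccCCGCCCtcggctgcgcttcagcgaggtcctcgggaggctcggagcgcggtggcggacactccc
Nos3: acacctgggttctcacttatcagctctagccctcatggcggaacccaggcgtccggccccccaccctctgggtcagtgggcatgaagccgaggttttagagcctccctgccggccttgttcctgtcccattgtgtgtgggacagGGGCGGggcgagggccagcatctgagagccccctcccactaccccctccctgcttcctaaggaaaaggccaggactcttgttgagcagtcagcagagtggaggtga

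The GC box occurred 3 times in the Vegfa window, 1 time in Kdr, 3 times in Flt1 and 1 time in Nos3, and 30.5% of 33469 RefSeq windows of the same length held it. The core GGAA of ETS factors, a family active in endothelium, occurred 4, 4, 3 and 4 times in the same order, but 93.2% of all windows held it. None of the 4 windows held ACGTG, 1 form of the core bound by hypoxia-inducible factors, which 16.6% of all windows held. The form GCGTG was not counted. It is present in the Kdr window and, on the opposite strand, in the Flt1 window. The Flt1 window alone of the 4 held TATAAA (12.9% of all windows) and the cyclic AMP response element TGACGTCA (1.59%). Each motif was searched on both strands, and a match, or the lack of one, describes the letters of these windows only. The GC box and the GGAA core were in the windows of Vegfa, Kdr, Flt1 and Nos3 alike.

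Against controls, the FSGS kidneys had less Vegfa, Kdr, Flt1 and Tek RNA, at 41.2% to 59.5% of the control mean. For Nos3 the groups overlapped, and the change did not pass the test described below. In the fit over all genes, 4 of the 5 genes fell at an adjusted p under 0.05 and 0 rose, and in those 4 every FSGS value lay below every control value. Differences were common in this table: of the 14139 genes tested, 44.0% passed the threshold, 17.0% lower and 27.0% higher in FSGS, and the groups were fully apart in 21.0% with FSGS lower and 34.6% with FSGS higher. The tests used limma on log2(FPKM + 1) with Benjamini-Hochberg adjustment over all genes tested; FPKM are fragments per kilobase of gene, scaled to the number of mapped fragments. Of the 4 calls, 2, those of Kdr and Tek, were lost when control 1, control 2, FSGS 1 or FSGS 3 was left out, which left 2 of 5 genes called. Those fits called 1790 to 2398 genes lower, of 14122 to 14140 tested. In these samples of kidney tissue, fewer cells of a type and less RNA per cell cannot be told apart.

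**Figure D1:**
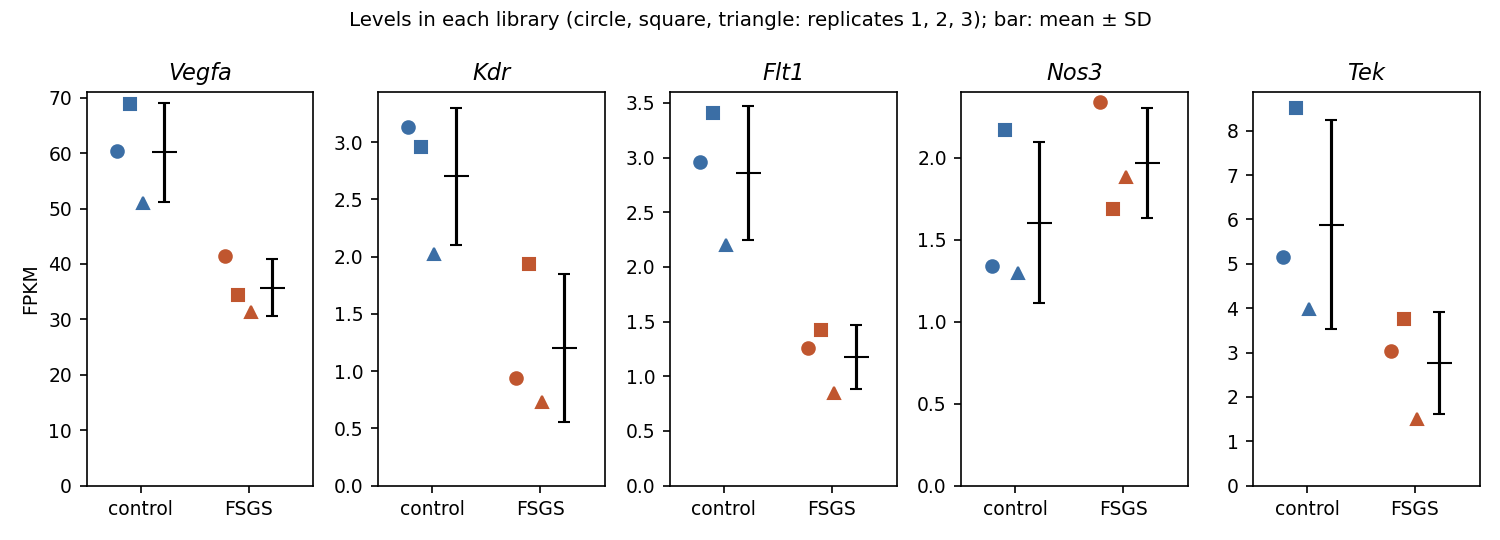
FPKM (vertical axes, each from 0) of the 5 genes in the 3 control and 3 FSGS libraries, with each group's mean ± SD beside its points. Vegfa, Kdr, Flt1 and Tek lie lower in all FSGS libraries, while the Nos3 groups overlap.

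Vegfa, the ligand, was by far the most abundant of the 5. Its level was 60.4, 69.0 and 51.0 FPKM in controls 1, 2 and 3, against 41.5, 34.3 and 31.4 FPKM in FSGS 1, 2 and 3. The groups did not overlap, and 9.51 FPKM separated the lowest control from the highest FSGS library. The means were 60.1 ± 8.99 and 35.7 ± 5.17 FPKM (SD, n = 3 each), so that FSGS stood at 59.5% of control. On the log2(FPKM + 1) scale Vegfa fell by 0.73 ± 0.16 (SE; 95% interval -1.10 to -0.37; limma adjusted p = 0.00621). By level within a library, it ranked from 760 to 901 of 21986 genes in controls and from 1217 to 1363 in FSGS.

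Kdr, the main signalling receptor, was a low transcript in these kidneys. Controls 1, 2 and 3 held 3.13, 2.96 and 2.02 FPKM of it, and FSGS 1, 2 and 3 held 0.94, 1.94 and 0.73 FPKM. FSGS 2 stood apart from the other FSGS libraries and came within 0.08 FPKM of control 3, without overlap. The means were 2.70 ± 0.598 and 1.20 ± 0.647 FPKM (SD, n = 3 each), and FSGS stood at 44.5% of control. The fall was 0.77 ± 0.22 on the log2(FPKM + 1) scale (SE; 95% interval -1.27 to -0.28; limma adjusted p = 0.0200). The spread within FSGS, 53.7% of the mean, was the widest of the 5 genes in either group. The limma adjusted p was 0.0681 without control 1, 0.0553 without control 2, 0.0581 without FSGS 1 and 0.0612 without FSGS 3, and 0.00446 without FSGS 2. It was 0.0733 with no filter on low values.

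Flt1, the tight-binding receptor with a soluble form, fell with less spread. Controls 1, 2 and 3 had 2.96, 3.41 and 2.20 FPKM, and FSGS 1, 2 and 3 had 1.26, 1.42 and 0.85 FPKM. Every FSGS library was below the lowest control, and FSGS 3 was the lowest of all 6. The means of 2.86 ± 0.612 and 1.18 ± 0.294 FPKM (SD, n = 3 each) put FSGS at 41.2% of control. The log2(FPKM + 1) change was -0.82 ± 0.17 (SE; 95% interval -1.21 to -0.44; limma adjusted p = 0.00474). A gene-level FPKM does not separate the membrane form of Flt1 from the soluble form. RefSeq places 1 pseudogene and 2 lncRNA genes within the Flt1 span, and since it is not stated whether counting used strand, their reads cannot be told apart from those of Flt1.

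Tek, the angiopoietin receptor, was the most abundant of the 3 receptors in every library. It was at 5.16, 8.52 and 3.97 FPKM in controls 1, 2 and 3, against 3.03, 3.75 and 1.50 FPKM in FSGS 1, 2 and 3. Control 2 was far above the other controls, and FSGS 2 fell only 0.22 FPKM short of control 3. The means were 5.88 ± 2.36 and 2.76 ± 1.15 FPKM (SD, n = 3 each), with FSGS at 46.9% of control. The fall on the log2(FPKM + 1) scale was 0.87 ± 0.29 (SE; 95% interval -1.53 to -0.21; limma adjusted p = 0.0379). On this scale it was the largest estimate of the 5 and also the least precise. The limma adjusted p was 0.0705 without control 1, 0.110 without control 2, 0.0538 without FSGS 1, 0.105 without FSGS 3 and 0.127 with no filter on low values. The log2 change was -0.61 without control 2 and -0.60 without FSGS 3, but -0.92 without control 1 and -0.94 without FSGS 1.

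Nos3, the nitric oxide synthase of endothelium, was not lower in FSGS. Its FPKM were 1.34, 2.17 and 1.30 in controls 1, 2 and 3, against 2.34, 1.69 and 1.88 in FSGS 1, 2 and 3. The groups overlapped, since control 2 exceeded FSGS 2 and FSGS 3. The means were 1.60 ± 0.491 and 1.97 ± 0.334 FPKM (SD, n = 3 each). The log2(FPKM + 1) change of 0.20 ± 0.17 (SE) did not pass the test (limma adjusted p = 0.367), and its 95% interval of -0.18 to 0.58 includes both a small fall and a rise. RefSeq shows Nos3 and the gene Atg9b, on the opposite strand, sharing 10 bases at their ends.

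Read against all genes on the log2(FPKM + 1) scale, the falls of the 4 genes were moderate. The median log2 change of the 14139 genes tested was 0.11, so that the distance from that median was -0.84 for Vegfa, -0.89 for Kdr, -0.93 for Flt1, -0.98 for Tek and 0.09 for Nos3. Between 8.77% and 11.2% of all genes tested had a lower value than each of the 4, while Nos3 lay at the 57.3 percentile. Among the 2408 genes called lower, 1214 fell more than Tek, 1311 more than Flt1, 1414 more than Kdr and 1529 more than Vegfa. This scale understates changes of low genes, so the order of the 4 depends on the pseudocount. With 0.1 in place of 1, the distance from the median was -0.89 for Vegfa, -1.33 for Kdr, -1.36 for Flt1 and -1.23 for Tek.

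**Figure D2:**
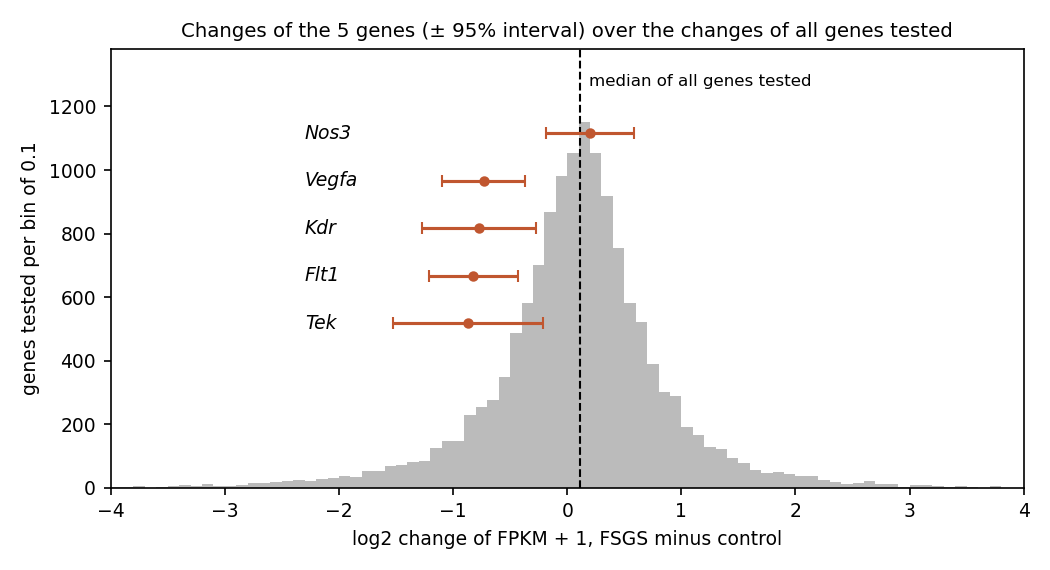
Histogram of the log2(FPKM + 1) change, FSGS minus control, of the genes tested (vertical axis: genes per bin of 0.1; horizontal axis shown from -4 to 4), with the 5 genes as points with 95% intervals at arbitrary heights. Vegfa, Kdr, Flt1 and Tek lie left of the dashed median of 0.11, and the interval of Nos3 spans it.

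FPKM are shares of a library, and the libraries differed in what filled them. In controls, mitochondrially encoded genes held 51.6% to 62.9% of summed FPKM, against 64.0% to 71.7% in FSGS libraries. The column totals were 614047 to 691777 and 754892 to 824403. The falls of the 4 genes passed the test under each of the 5 column scalings, as deposited and 4 others. Of all 14139 genes tested, 2298 to 3485 were called lower under the same 5 scalings. Over these scalings, the log2 change ran from -1.02 to -0.57 for Vegfa, from -1.07 to -0.69 for Kdr, from -1.12 to -0.74 for Flt1 and from -1.16 to -0.77 for Tek. After rescaling without the mitochondrial and most abundant genes, the changes were -0.60 for Vegfa, -0.69 for Kdr, -0.74 for Flt1 and -0.77 for Tek, where the median of all genes was 0.22. Nos3 ranged from 0.02 to 0.29 and passed under none of the 5.

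**Figure D3:**
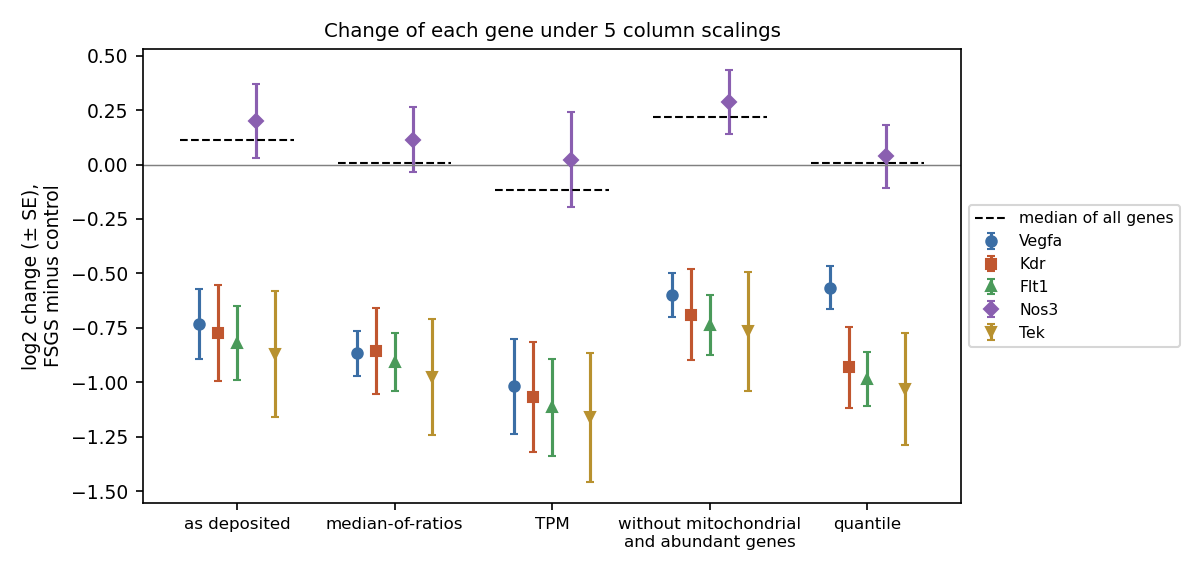
Log2 change (± SE) of each gene under 5 scalings of the columns, with the median change of all genes as a dashed line for each scaling. The 4 falling genes lie between -1.16 and -0.57, and Nos3 stays between 0.02 and 0.29, with the dashed line between -0.12 and 0.22.

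Ratios of 2 genes within a library do not depend on the factor by which its column was scaled. Quantile normalization, which uses no single factor, can change them. The Flt1 to Kdr ratio was 0.946, 1.15 and 1.09 in controls 1, 2 and 3, against 1.34, 0.732 and 1.16 in FSGS 1, 2 and 3. The groups overlapped, with means of 1.06 ± 0.106 and 1.08 ± 0.313 (SD, n = 3 each), and the exact permutation test, two-sided, gave p = 1. The FSGS ratios were spread on both sides of the controls, with FSGS 2 the lowest of the 6 libraries. The Tek to Kdr ratio, 2.16 ± 0.639 in controls and 2.40 ± 0.712 in FSGS (SD, n = 3 each), overlapped between the groups as well (p = 0.6 by the same exact test). With 3 against 3 the smallest possible p is 0.1, so these tests could not have passed the threshold, and they do not show that the receptors changed equally.

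Without a pseudocount, the ligand stood higher relative to Flt1 in every FSGS library than in any control. The Vegfa to Flt1 ratio was 20.4, 20.2 and 23.2 in controls 1, 2 and 3, against 32.9, 24.2 and 37.0 in FSGS 1, 2 and 3, without overlap. The mean log2 ratio was higher by 0.54 in FSGS (p = 0.1 by the two-sided exact test, with an adjusted p of 0.25 over the 5 ratios planned). With a pseudocount of 1 added to both genes, as in the fit over all genes, this difference was 0.09 and the groups overlapped. How many other pairs of genes would stand apart without a pseudocount was not counted. Against Kdr the groups overlapped: the Vegfa to Kdr ratio was 19.3, 23.3 and 25.2 in controls, whereas FSGS 1, 2 and 3 had 44.1, 17.7 and 43.0 (p = 0.4, exact permutation test). FSGS 2, the library with the highest Kdr of its group, was the lowest of all 6 here.

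Nos3 stood higher relative to each of the other 4 genes in all FSGS libraries. The Nos3 to Kdr ratio was 0.428, 0.733 and 0.644 in controls 1, 2 and 3, against 2.49, 0.871 and 2.58 in FSGS 1, 2 and 3 (exact permutation test, p = 0.1, adjusted p = 0.25 over the 5 planned ratios). Controls thus had more Kdr than Nos3 in each library, and FSGS 1 and 3 had more Nos3 than Kdr. The other 3 Nos3 ratios were added after the values were seen. Nos3 to Flt1 was 0.560 ± 0.0957 in controls and 1.75 ± 0.519 in FSGS, Nos3 to Tek was 0.281 ± 0.0406 in controls and 0.825 ± 0.404 in FSGS, and Nos3 to Vegfa was 0.0264 ± 0.00471 and 0.0552 ± 0.00542 (SD, n = 3 each). None overlapped between the groups, and the exact permutation test gave p = 0.1 for each (adjusted p = 0.16 over all 8 ratios). That is the smallest p possible with 3 against 3. The 4 ratios share the Nos3 values, so they are not separate results and in part restate the falls of the other 4 genes. How many other genes would stand apart in the same way was not counted.

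**Figure D4:**
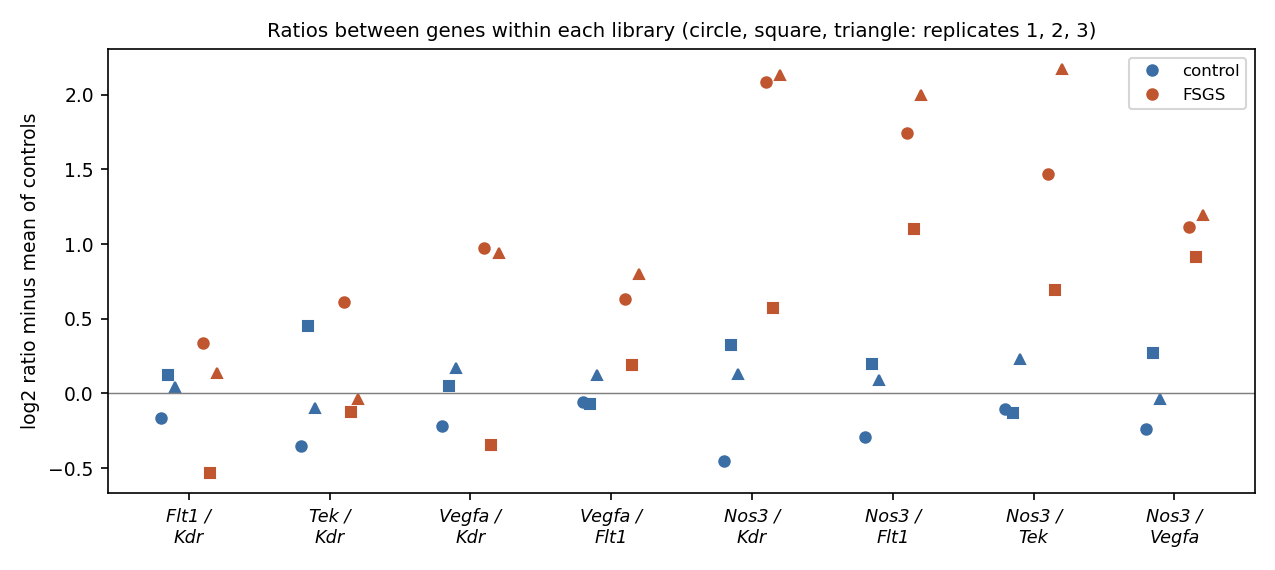
Log2 of 8 ratios between genes within each library, minus the mean of the controls (vertical axis), with controls in blue and FSGS in orange. All FSGS points lie above all control points in the 4 Nos3 ratios and in Vegfa to Flt1, and the groups overlap in the other 3.

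In the order of the levels, Nos3 was last in controls and the third in FSGS. By group mean, controls had Vegfa at 60.1, Tek at 5.88, Flt1 at 2.86, Kdr at 2.70 and Nos3 at 1.60 FPKM. In FSGS the order was Vegfa at 35.7, Tek at 2.76, Nos3 at 1.97, Kdr at 1.20 and Flt1 at 1.18 FPKM. Flt1 and Kdr did not differ beyond their spread in either group, and in controls Nos3 was below both in each library. In FSGS the values of Nos3 overlapped those of Tek and of Kdr and lay above all those of Flt1. Ranks within a library do not depend on the scaling of its column. Among all 21986 genes, Kdr ranked from 9126 to 9925 in controls and from 11080 to 13119 in FSGS libraries. Flt1 ranked from 8815 to 9663 and from 11919 to 12800, and Tek from 5312 to 7594 and from 8875 to 11398. Nos3 ranked from 10309 to 11594 in controls and from 10546 to 11480 in FSGS. The ranks of the 3 receptors were thus further down in every FSGS library than in any control, while those of Nos3 overlapped.

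Single libraries also had an order in common. As deposited, replicate 3 was the lowest of its group for Vegfa, Kdr, Flt1 and Tek in both groups. With median-of-ratios scaling this held for Kdr, Flt1 and Tek, while Vegfa was at 32.0 in FSGS 2 and 32.2 in FSGS 3. The replicate 3 libraries lay apart from the others on the second principal component of all genes tested (-20.2 for control 3 and -21.8 for FSGS 3, against 4.79 to 18.8). Their mitochondrial shares were the highest of their groups, at 62.9% and 71.7%. With both left out, the changes were -0.76 for Vegfa, -0.76 for Kdr, -0.84 for Flt1 and -0.81 for Tek. Of the 4, 3 kept their call, Tek only just. The limma adjusted p was 0.0499 for Tek and 0.0530 for Kdr, on either side of the threshold. In that fit 1938 of 14231 genes were called lower. The part of the mitochondrial share in this order was not tested.

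**Figure D5:**
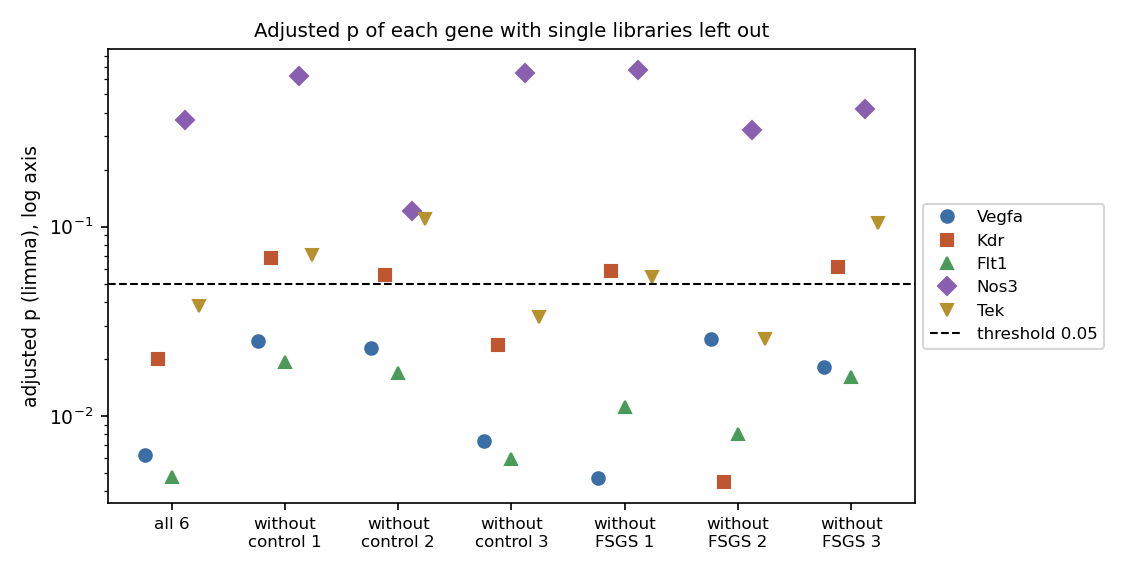
Limma adjusted p (log axis) of each gene with all 6 libraries and with single libraries left out; the dashed line is the threshold of 0.05. Vegfa and Flt1 stay below the line throughout, Kdr and Tek cross it without control 1, control 2, FSGS 1 or FSGS 3, and Nos3 stays above it.

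For each gene, the 7645 other genes at a mean of 5 FPKM or more were searched for the pattern over the 6 libraries most like it, by Pearson correlation of log2(FPKM + 1). The highest were ENSRNOG00000007235 on chromosome 10 for Flt1 (r = 0.998), ENSRNOG00000009980 on chromosome 2 for Tek (r = 0.998) and ENSRNOG00000012812 on chromosome 7 for Nos3 (r = 0.989). The 6 points share their libraries and fall into 2 groups, so high values are common: 460 genes exceeded 0.95 for Flt1, 517 for Vegfa, 58 for Tek, 56 for Kdr and 15 for Nos3. The first of these genes had 188, 205 and 145 FPKM in controls and 93.6, 108 and 76.6 FPKM in FSGS, so that replicate 2 was highest and replicate 3 lowest in both groups, as for Flt1. The second had 20.01, 27.5 and 16.9 FPKM in controls and 14.1, 17.0 and 10.3 FPKM in FSGS, the same order again, but its groups overlapped and its change did not pass (limma adjusted p = 0.0530). The third had 22.9, 24.7 and 22.3 FPKM in controls and 25.1, 23.7 and 24.3 FPKM in FSGS, overlapping like Nos3.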

How the data were processed

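RNA of 6 kidney samples was made into dUTP strand-marked libraries from poly(A) RNA, per the labels' protocols. HISAT2 2.2.1, StringTie 2.1.6, cutadapt 1.9, edgeR and DESeq2 appear in the submitters' processing notes without their roles; build, annotation and any use of strand in counting are not given in the sources used here. Per the file headers, the authors' deposited unit is FPKM; it carries no depth, and so counting intervals and detection limits are left out. All 6 sample columns were used.

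Genes with a mean of at least 0.5 FPKM were tested with limma 3.58.1 in R 4.3.3 on log2(FPKM + 1), a scale that understates changes of low genes, with group as the only term, a mean-variance trend and a threshold of 0.05 on the adjusted p. The fit was tested on simulated data. Exact permutation tests, two-sided, were used for ratios within libraries. Figures used matplotlib 3.10.9.

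The 5 genes were given by ID, and they, the tests and the lists were chosen with earlier results of these data known. The genes named besides the 5 are, for each, the most correlated gene, of which at most 2 lower and 2 higher in FSGS are printed. Lists of other VEGF pathway genes and of cell type markers were not analysed here, because 0 of 47357 RefSeq rows carried an Ensembl ID to match; the tissue label was thus not checked against markers. Alternatives were other pseudocounts, filters, scalings, a fit without trend, a replicate block and leaving out single libraries.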

Additional observations from a re-analysis of the deposited data

How the results depend on the processing

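The direction of all 5 genes held under every alternative run. Vegfa (log2 change -1.02 to -0.57, 17 alternatives) and Flt1 (-1.22 to -0.35, 16) kept their call under each, and Nos3 (0.02 to 0.35, 16) passed under none. With no filter 2 of the 5 genes were called, and Kdr (-0.77) and Tek (-0.87) did not pass. Over all genes, 2293 of 21986 were then called lower. With a mean of at least 5 FPKM only Vegfa was tested, and 1 gene was called, where 1604 of 7646 genes were called lower. Leaving out single libraries called 2 to 4 of the 5 genes, with Kdr at -1.002 to -0.62 and Tek at -1.08 to -0.60. These fits called 1790 to 2398 genes lower, of 14060 to 14191 tested. Without replicate 3 of both groups, chosen after seeing the data, 3 of the 5 were called and Kdr was at -0.76. Over all genes, 1938 of 14231 were called lower there. The cause of the lost calls was not tested. The pseudocount sets the size for low genes: Kdr was -1.19 with 0.1 and -0.31 with 5. Under the replicate block, 4 of the 5 genes passed (Tek at -0.87, limma adjusted p = 0.00352) and none of the 5 calls changed. In that fit 2738 of 14139 genes were called lower. Same-numbered libraries' deviations correlated at 0.13, 0.03 and 0.02 over genes, and the numbers were not taken as pairs. Replicate 3 of both groups nevertheless lay apart on the second principal component (-20.2 and -21.8). Whether the numbers mark a shared batch was not tested. The Flt1 to Kdr log2 ratio difference was -0.02, and -0.20 to 0.24 leaving out single libraries. Tek to Kdr was 0.15, -0.0943 with pseudocount 1 and -0.0788 to 0.38 leaving out single libraries, so neither has a settled sign. The 4 Nos3 ratios stayed above 0 throughout, at 0.93 to 2.11. Vegfa to Flt1 was 0.09 with pseudocount 1, which compresses ratios of a high to a low gene.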
